A study of Homo sapiens with 44 samples.

Results

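The genes described here are 10 that load or activate the replicative DNA helicase: MCM2, MCM3, MCM4, MCM5, MCM6 and MCM7, which encode the subunits of the MCM helicase, and MCM8, MCM10, CDC6 and CDT1. They were chosen by name from the 23368 gene symbols of the count table after an earlier look at these data had singled out MCM2 to MCM6 among proliferation genes for their levels below vehicle, and some genes given further on, such as MYBL2 and TK1, lay further below it. Levels against vehicle therefore chose the set and are given as a description. Calls against vehicle stand beside the share over all genes, and nothing is read from them. All 10 passed the filter on low counts, which kept 13520 genes.

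In a dividing cell the origin recognition complex, CDC6 and CDT1 load the ring of MCM2 to MCM7 onto DNA in G1 phase, a step called licensing. CDC45 and the GINS complex later turn the loaded ring into the active helicase that opens DNA at replication forks, with MCM10 taking part in that activation. MCM8 forms a separate helicase with MCM9 that acts mainly in repair by homologous recombination. Many of these genes are transcribed by E2F factors, which the retinoblastoma protein restrains until cells commit to S phase, and MCM proteins are widely used as markers of cells that are in cycle.

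The tumors were xenografts of VCaP cells, an established line from human prostate cancer with the TMPRSS2-ERG fusion, used at passage 61 and grown in athymic nude mice (host strain HSD:Athymic Nude–Foxn1nu). All hosts carried the same Foxn1nu background, which leaves them without a thymus, and all were castrated. Dosing began once serum PSA had returned to its level before castration, so the tumors of every arm had regrown under low androgen. The 3 arms were enzalutamide (14 libraries) and ARN-509 (15 libraries), both at 20 mg/kg/day by daily gavage for 4 weeks, and vehicle (15 libraries). Enzalutamide and ARN-509, also known as apalutamide, are antiandrogens built on a closely related thiohydantoin scaffold. The labels give no age for the mice. All tumors come from a single line, and since an arm has as many libraries as treated mice, a library was read as 1 tumor from 1 animal.

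Total counts ran from 4.72 to 16.9 M in 13 enzalutamide libraries (median 8.62), from 3.38 to 30.1 M in 15 ARN-509 libraries (median 7.49) and from 4.19 to 25.8 M in 15 vehicle libraries (median 5.71), M being the SI prefix mega. The other library, enzalutamide 4, held 80142 counts, of which MCM4 had 14 and each of the other 9 genes between 0 and 2, and it was left out of the values below. Vehicle 8 and vehicle 10 stood apart from their arm, with a Pearson r of 0.889 and 0.916 to the mean of the other vehicle libraries over genes with at least 50 CPM (counts scaled to a fixed library total), against 0.955 for the next lowest library. Fold changes of the 10 genes, their overlap with vehicle and the counts of calls are therefore also given without these 2 libraries. Prostate epithelium markers were present in all arms: 11 of them summed to 14419 to 20097 CPM in enzalutamide, 13645 to 19896 CPM in ARN-509 and 9034 to 18110 CPM in vehicle tumors. Markers of other cell types moved with the arms in part. The basal keratin KRT14, the only one of 4 basal markers abundant enough to be tested, fell in both drug arms, averaging 0.95 ± 0.59 CPM in enzalutamide, 0.61 ± 0.47 CPM in ARN-509 and 5.44 ± 2.60 CPM in vehicle tumors (SD), with a log2 fold change of -2.55 and -3.12 against vehicle. The 4 basal markers summed to 0.20 to 3.00 CPM in enzalutamide, 0 to 6.83 CPM in ARN-509 and 0.89 to 8.64 CPM in vehicle tumors. Endothelial markers, of which 0 of 6 were abundant enough to be tested, summed to 0.40 to 2.73 CPM in enzalutamide, 0.21 to 1.67 CPM in ARN-509 and 2.0 to 6.69 CPM in vehicle tumors. The 8 fibroblast markers summed to 13.7 to 23.9 CPM in enzalutamide, 11.3 to 29.4 CPM in ARN-509 and 12.6 to 30.9 CPM in vehicle tumors, and of the 2 tested, ACTA2 fell with ARN-509 by 0.33 on the log2 scale (adjusted p 0.0412 by edgeR). The 8 leukocyte markers summed to 4.51 to 9.72 CPM in enzalutamide, 4.57 to 11.2 CPM in ARN-509 and 4.08 to 10.6 CPM in vehicle tumors, most of it CD68, with CD3E at 0 in every library. The hosts were mice and how mouse reads were handled is not given, so reads of these markers from host cells and from tumor cells cannot be told apart. Their part in the results below was not tested. In bulk tumors, fewer cycling cells and less RNA of these genes in each cell cannot be told apart.

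Because these genes are textbook E2F targets, the start of each gene was searched for E2F-type octamers (TTTCCCGC, TTTCGCGC, TTTGCCGC and TTTGGCGC, on both strands) in RefSeq sequence of build GRCh38.p14, from 250 bases before to 50 bases after the transcription start. The table held promoters of 8 of the 10 genes, MCM4 and MCM5 being the exceptions. An octamer stood in 7 of the 8, all but MCM10, against 6.59% of 9402 tested genes with a promoter in the table and 3.99% of all 27305 genes in it. In the lines below, each written 5′ to 3′ on the strand of its gene, capitals mark the octamers, and MCM2 and MCM6 hold longer capital blocks because an octamer on each strand overlaps the other. They are shown because octamers of this type recur in the 7 genes, although not the same one in each.
MCM2 (chr3:127598398-127598424, plus strand): gtcacgtgaaccactTTTCGCGCGAAA
MCM3 (chr6:52284739-52284761, minus strand): gaagagttcggaagtTTTCGCGC
MCM6 (chr2:135876569-135876610, minus strand): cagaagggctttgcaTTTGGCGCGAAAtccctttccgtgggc
MCM6, second block (chr2:135876507-135876548, minus strand): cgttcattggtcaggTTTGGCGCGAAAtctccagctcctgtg
MCM7 (chr7:100101398-100101421, minus strand): acgtggggggcgacgTTTCGCGCc
CDC6 (chr17:40287871-40287893, plus strand): ctgtggccattcggaTTTGGCGC
CDT1 (chr16:88803739-88803776, plus strand): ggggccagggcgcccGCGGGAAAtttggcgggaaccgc
MCM8 (chr20:5950663-5950685, plus strand): agttggatcactgaaGCGCCAAA
The 2 MCM6 stretches carry the same capital block, which begins 152 and 90 bases before the start, while CDT1 holds TTTCCCGC read on the other strand. MCM3 and MCM7 each hold a further TTTCCCGC, 174 and 187 bases before the start, which is not printed. In MCM2, CDC6 and MCM8 the octamers lay within the first 50 bases after the start, so 4 of 8 genes kept a match when only bases before the start were searched, against 5.58% of tested genes and 3.40% of all genes. With C or G allowed as the last base, a width chosen after the sequences were seen, MCM10 matched too, giving 8 of 8 against 12.3% of tested genes and 7.43% of all genes. A match of letters is a description of these windows and shows no bound factor.

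The helicase subunits were measured first, as CPM of a library total scaled by TMM (the trimmed mean of M values, which sets libraries to a common scale), with the lowest, median and highest tumor of each arm. MCM2, a subunit that also binds histones at the fork, was at 59.9, 85.8 and 113 CPM in 13 enzalutamide tumors, 59.2, 76.3 and 104 CPM in 15 ARN-509 tumors and 75.2, 105 and 160 CPM in 15 vehicle tumors. For MCM2, 12 of 13 enzalutamide tumors and 15 of 15 ARN-509 tumors lay below the vehicle median, but only 3 of 13 and 6 of 15 lay below the lowest vehicle tumor. MCM3 was at 68.0, 87.8 and 110.3 CPM in enzalutamide tumors, 59.7, 76.9 and 104 CPM in ARN-509 tumors and 83.6, 108 and 146 CPM in vehicle tumors. For MCM3, 4 of 13 enzalutamide tumors and 11 of 15 ARN-509 tumors lay below the lowest vehicle tumor. MCM4, which with MCM6 and MCM7 forms the part of the ring with helicase activity on its own, was at 172, 247 and 315 CPM in enzalutamide tumors, 157, 226 and 319.8 CPM in ARN-509 tumors and 209, 301 and 443 CPM in vehicle tumors. For MCM4, 2 of 13 enzalutamide and 5 of 15 ARN-509 tumors lay below every vehicle tumor, and 5 of 13 and 11 of 15 without vehicle 8 and vehicle 10.

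MCM5, which with MCM2 forms the gate through which the ring opens around DNA, was at 50.7, 67.2 and 81.5 CPM in enzalutamide tumors, 39.7, 53.2 and 70.8 CPM in ARN-509 tumors and 55.7, 78.8 and 109 CPM in vehicle tumors. For MCM5, 11 of 13 enzalutamide and 15 of 15 ARN-509 tumors were below the vehicle median, and 2 of 13 and 9 of 15 were below the lowest vehicle tumor. MCM6 was at 66.4, 80.4 and 102 CPM in enzalutamide tumors, 63.9, 78.6 and 107 CPM in ARN-509 tumors and 72.1, 103 and 144 CPM in vehicle tumors. The medians of MCM6 under the 2 drugs lay closer together than those of MCM5, and 13 of 13 enzalutamide and 14 of 15 ARN-509 tumors were under the vehicle median. MCM7 was at 205, 255 and 303 CPM in enzalutamide tumors, 188, 234 and 274 CPM in ARN-509 tumors and 227, 287 and 388 CPM in vehicle tumors. For MCM7, 9 of 13 enzalutamide tumors and 15 of 15 ARN-509 tumors lay below the vehicle median.

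**Figure D1:**
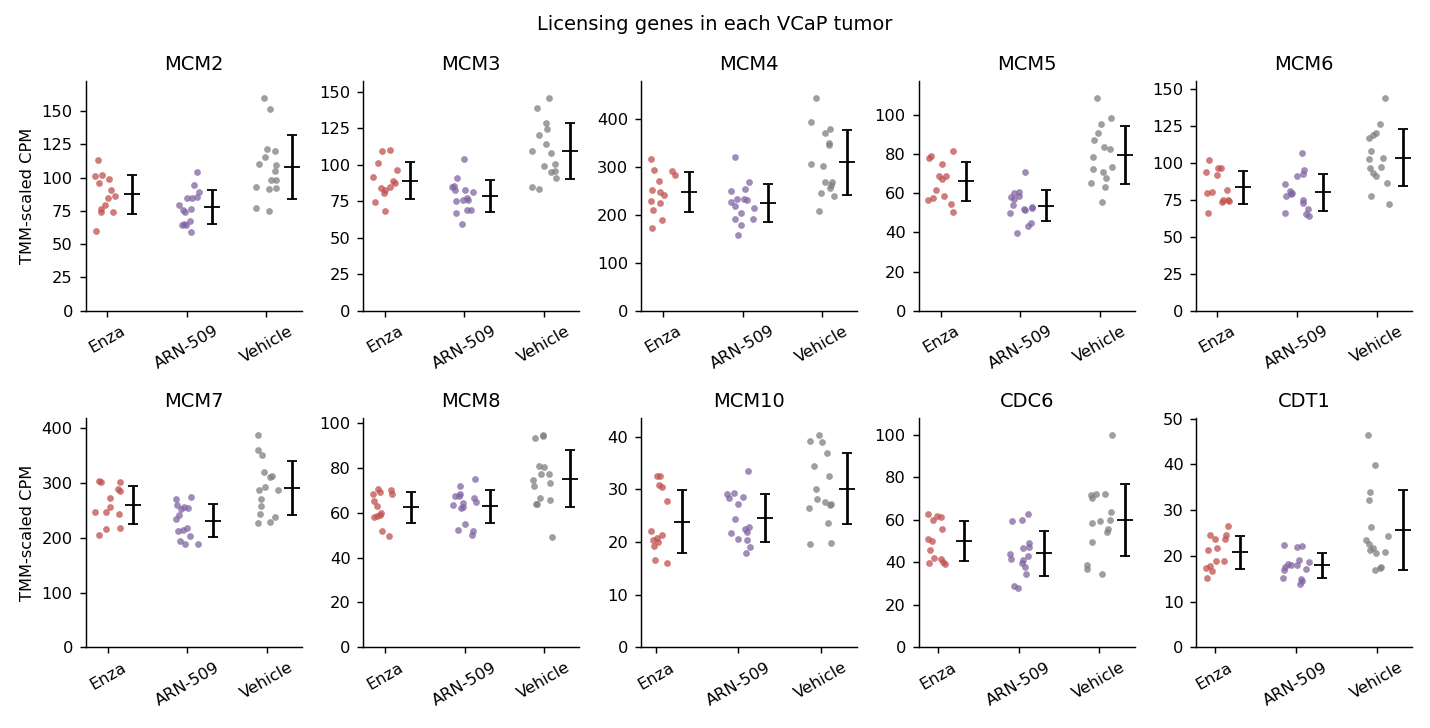
Level of each of the 10 genes in every tumor, in CPM on a linear axis, with enzalutamide (13 tumors), ARN-509 (15) and vehicle (15) from left to right. Each point is 1 tumor, and the bar beside the points is the mean of the arm with its SD. The drug arms sit lower than vehicle for every gene, as for MCM5 with medians of 67.2, 53.2 and 78.8 CPM, yet the points of the arms overlap in each panel.

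The loaders CDC6 and CDT1, the activation factor MCM10 and the repair helicase MCM8 come next. CDC6, the ATPase that recruits CDT1 and the MCM ring to the origin, was at 39.2, 50.1 and 62.6 CPM in enzalutamide tumors, 27.9, 42.9 and 62.7 CPM in ARN-509 tumors and 34.5, 59.5 and 100.0 CPM in vehicle tumors. CDT1, the partner that geminin and degradation hold back after S phase begins, was at 15.2, 21.2 and 26.5 CPM in enzalutamide tumors, 13.9, 17.9 and 22.3 CPM in ARN-509 tumors and 16.9, 22.7 and 46.5 CPM in vehicle tumors. The 2 loaders were spread widely in vehicle, and no enzalutamide tumor and 3 of 15 ARN-509 tumors had less CDC6 than the lowest vehicle tumor. MCM10 was at 16.0, 21.3 and 32.5 CPM in enzalutamide tumors, 18.0, 22.9 and 33.6 CPM in ARN-509 tumors and 19.6, 28.2 and 40.4 CPM in vehicle tumors. MCM8 was at 49.6, 62.9 and 70.6 CPM in enzalutamide tumors, 50.1, 64.2 and 74.8 CPM in ARN-509 tumors and 49.2, 74.6 and 94.7 CPM in vehicle tumors. For MCM8 the lowest value of all 43 tumors was a vehicle tumor, although 13 of 13 enzalutamide and 14 of 15 ARN-509 tumors were under the vehicle median.

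Set against vehicle, each of the 10 genes had a negative log2 fold change in both drug arms. With enzalutamide the values ran from -0.33 for MCM10 to -0.16 for MCM7, with a median of -0.30, which is 20.4% to 10.6% lower. With ARN-509 they ran from -0.57 for MCM5 to -0.26 for MCM8, with a median of -0.45, which is 32.5% to 16.4% lower. The median over all tested genes was -0.004 with enzalutamide and -0.001 with ARN-509. The largest differences with ARN-509 were MCM5 at -0.57 ± 0.08 (SE), CDT1 at -0.52 ± 0.12, MCM2 at -0.47 ± 0.09, MCM3 at -0.47 ± 0.08, MCM4 at -0.46 ± 0.10 and CDC6 at -0.44 ± 0.12. In enzalutamide tumors the same genes were at -0.27 ± 0.09 (SE) for MCM5, -0.30 ± 0.12 for CDT1, -0.30 ± 0.10 for MCM2, -0.29 ± 0.08 for MCM3, -0.32 ± 0.10 for MCM4 and -0.26 ± 0.13 for CDC6. The 2 comparisons share the vehicle tumors. Counted by edgeR's quasi-likelihood test with Benjamini-Hochberg adjustment over all tested genes and a threshold of 0.05, 6 of 10 genes were lower with enzalutamide (MCM2, MCM3, MCM4, MCM5, MCM6 and MCM8), where 5.67% of all tested genes were called lower and 5.1% higher (10.8% in all). With ARN-509, 10 of 10 were called lower, where 16.1% of all tested genes were called lower and 14.7% higher (30.8% in all). Since the contrast with vehicle chose the set, nothing is read from these counts.

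The sign was negative in every fit that was run: 560 of 560 values with enzalutamide and 560 of 560 with ARN-509, over 10 genes in 13 alternative analyses and 43 fits that each left out 1 library. These fits share nearly all their libraries, and the same libraries chose the set, so nothing is read from the agreement in sign. A few tumors set the ends of the ranges. Vehicle 8 was the highest vehicle tumor for 6 of the 10 genes (MCM2, MCM3, MCM4, MCM6, CDC6 and CDT1) and vehicle 10 the lowest for 4 (MCM2, MCM4, MCM10 and CDC6). Without both, the log2 fold changes ran from -0.33 to -0.16 with enzalutamide and from -0.57 to -0.28 with ARN-509. In the same setting 7 of 10 genes were called lower with enzalutamide and 10 of 10 with ARN-509. In that setting, chosen for the overlap after the values were seen, between 8 of 13 (CDT1) and 13 of 13 enzalutamide tumors (MCM6 and MCM8) and between 10 of 15 (MCM10) and 15 of 15 ARN-509 tumors lay below the vehicle median. Below the lowest of the 13 other vehicle tumors lay 4 enzalutamide and 8 ARN-509 tumors for MCM2, 3 and 2 for MCM10 and 0 and 3 for CDC6. Enzalutamide 5 was the lowest of its arm for 7 genes (MCM2 to MCM7 and MCM10), and ARN-509 13 was the highest of its arm for 8 (MCM2 to MCM7, MCM10 and CDT1). Without 1 of vehicle 7, vehicle 9, enzalutamide 5 or enzalutamide 7, the count called lower with enzalutamide was 3 in place of 6.

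The drugs were given at equal dose and for an equal time, so they were compared directly, a contrast that did not choose the genes but shares its libraries with those that did. Of the 10 genes 1 passed, MCM5, which was higher in enzalutamide than in ARN-509 tumors. MCM5 averaged 66.1 ± 10.2 CPM in enzalutamide tumors and 53.8 ± 7.76 CPM in ARN-509 tumors (SD, n = 13 and 15), a log2 fold change of 0.30 ± 0.09 (SE), with a 95% interval of 0.12 to 0.47 and an adjusted p of 0.0131 by edgeR. Among all tested genes 12.2% were called higher and 14.6% lower in enzalutamide than in ARN-509 tumors (26.8% in all), so 1 of 10 is near the background. The next largest differences were CDT1 at 0.22 (interval -0.02 to 0.47, adjusted p 0.162), CDC6 at 0.18 (-0.07 to 0.43, 0.275) and MCM3 at 0.18 (0.02 to 0.35, 0.0897). MCM7 was at 0.17 (0.01 to 0.33, adjusted p 0.0917), MCM2 at 0.17 (-0.03 to 0.36, 0.192) and MCM4 at 0.14 (-0.06 to 0.34, 0.302). MCM6 at 0.06 (-0.11 to 0.23, adjusted p 0.605), MCM8 at -0.006 (-0.16 to 0.15, 0.960) and MCM10 at -0.03 (-0.27 to 0.21, 0.876) lay closest to 0, and their intervals leave room for differences of either sign. In all, 8 of 10 genes were higher in enzalutamide tumors, with a median of 0.17 against 0.010 over all tested genes.

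This contrast runs with the base composition of transcripts. Across 12947 tested genes with a GC value, the log2 fold change between the drugs rose with GC content (Spearman rho 0.62) and fell with transcript length (-0.54), compared with 0.21 and -0.20 for enzalutamide against vehicle and -0.42 and 0.34 for ARN-509 against vehicle. Each rho is taken over genes, and genes are not independent samples. The 10 genes differ in GC content, with CDT1 at 64.9%, MCM2 at 58.1%, MCM7 at 57.6%, MCM5 at 56.6%, MCM3 at 51.6%, MCM4 at 48.5%, CDC6 at 45.5%, MCM10 at 43.3%, MCM6 at 43.1% and MCM8 at 42%. Over tested genes the median was 48.9% and the quartiles were 42.3% and 57.3%. Once the trend of every library with GC and length had been removed, MCM5 had a log2 fold change of 0.21 between the drugs with an adjusted p of 0.0757 by edgeR, and 0 of 10 genes passed. In the same analysis the differences of CDT1 and MCM2 between the drugs were 0.02 and 0.06, while those of CDC6 and MCM8 were 0.29 and 0.20. Against vehicle the removal left the range at -0.32 to -0.19 with enzalutamide and at -0.53 to -0.25 with ARN-509. The order of the genes with ARN-509, given above, changed with it. CDT1 was then at -0.34 and MCM2 at -0.38, in place of -0.52 and -0.47. CDC6 was at -0.53 and MCM8 at -0.41, in place of -0.44 and -0.26. MCM5 was at -0.50 and MCM7, then the smallest, at -0.25.

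Levels of different genes were compared after division by transcript length, as CPM per kilobase. The order of the mean levels was the same in all 3 arms: MCM7, MCM4, MCM3, MCM2, MCM6, MCM5, CDC6, MCM8, CDT1 and MCM10, highest first. MCM7 averaged 84.5 ± 11.3 CPM per kilobase in enzalutamide, 74.9 ± 9.75 in ARN-509 and 94.6 ± 16.0 in vehicle tumors (SD, n = 13, 15 and 15). MCM5, the lowest of the ring, averaged 18.7 ± 2.88, 15.2 ± 2.2 and 22.6 ± 4.16 CPM per kilobase in the same arms. MCM2 and MCM6, neighbours in that order, overlapped in mean ± SD in every arm, at 24.1 ± 4.06 and 22.3 ± 2.98 CPM per kilobase in enzalutamide, 21.5 ± 3.49 and 21.4 ± 3.30 in ARN-509 and 29.8 ± 6.58 and 27.7 ± 5.14 in vehicle tumors, as did CDT1 and MCM10, at 5.52 ± 0.83 and 5.34 ± 1.0 in ARN-509 tumors. By the same measure MCM4 stood apart from MCM3, and MCM5 from CDC6, in all 3 arms, MCM7 stood apart from MCM4 in the drug arms but not in vehicle, and MCM8 stood apart from CDT1 in the ARN-509 arm alone. MCM6 likewise stood apart from MCM5 in the ARN-509 arm alone. In the annotation MCM7 overlaps AP4M1, MIR25, MIR93 and MIR106B, MCM2 overlaps TPRA1 and MCM8 overlaps MCM8-AS1. The kit does not mark strand, so reads of the genes on the other strand (AP4M1, TPRA1 and MCM8-AS1) cannot be separated and the levels of MCM7, MCM2 and MCM8 are uncertain to that extent.

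The ring holds its 6 subunits in equal number, and their transcripts were not equal by CPM per kilobase of the longest protein-coding transcript. The counts do not show which transcript of a gene was expressed, and the MCM7 level carries the overlap with AP4M1 named above. The shares are therefore a description. MCM7 made up 35.8% of the summed CPM per kilobase of MCM2 to MCM7 in enzalutamide, 35.6% in ARN-509 and 33.6% in vehicle tumors. MCM4 followed with 24.9%, 25.3% and 26%, and MCM5 was the smallest with 7.91%, 7.21% and 7.99% in the same arms. Within a tumor the highest subunit exceeded the lowest 4.55 ± 0.44 times in enzalutamide, 4.96 ± 0.53 times in ARN-509 and 4.22 ± 0.36 times in vehicle tumors (SD). The summed level was 178, 245 and 278 CPM per kilobase (lowest, median and highest) in enzalutamide tumors, 177, 211 and 275 in ARN-509 tumors and 213, 277 and 378 in vehicle tumors. Its mean was 16.3% below vehicle with enzalutamide and 25.2% below vehicle with ARN-509. For the sum, 12 of 13 enzalutamide and 15 of 15 ARN-509 tumors lay below the vehicle median, and 3 of 13 and 9 of 15 lay below the lowest vehicle tumor. Without vehicle 8 and vehicle 10 the mean was 15.7% and 24.7% below vehicle, and 5 of 13 and 12 of 15 tumors lay below the lowest vehicle tumor.

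**Figure D2:**
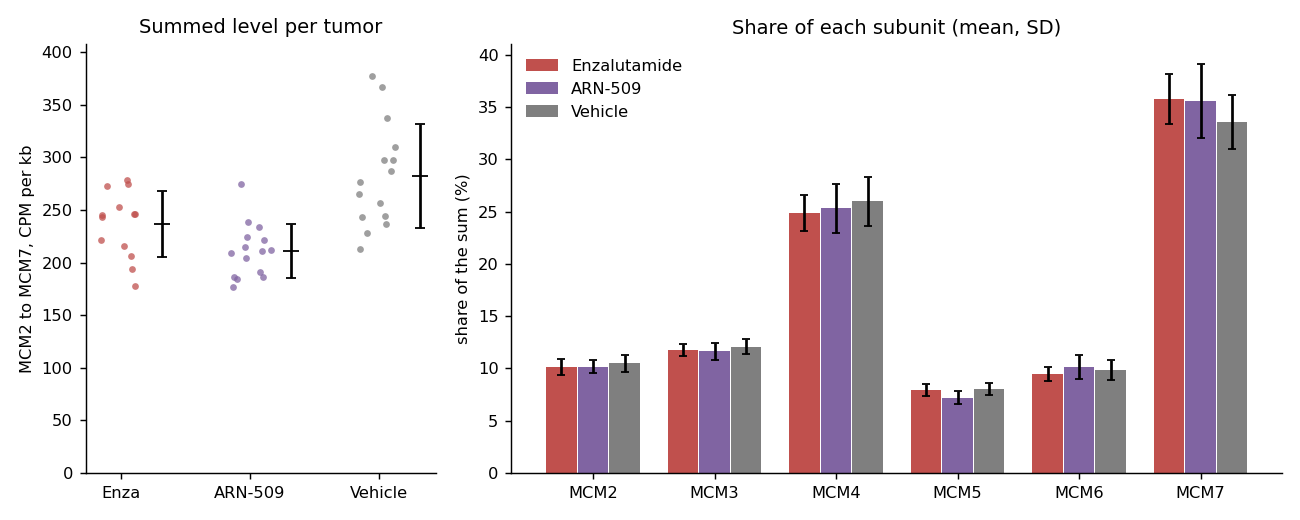
Summed level of MCM2 to MCM7 in each tumor (CPM per kilobase) and the percentage each subunit contributes to it, with the arms in the order enzalutamide, ARN-509 and vehicle. The sums have medians of 245, 211 and 277, and MCM7 and MCM4 make up the largest shares in every arm.

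How the genes varied from tumor to tumor inside the arms did not enter their choice. After each arm was centred on its own mean, all 15 pairs of ring subunits varied together over 43 tumors, with a Pearson r on log2 CPM from 0.44 for MCM6 and MCM7 to 0.91 for MCM3 and MCM6, and a median of 0.77. Of all 45 pairs of the 10 genes, 37 passed a two-sided permutation test (100000 permutations within arms, Benjamini-Hochberg over the 45). MCM4 and MCM10 had an r of 0.87, and MCM10 and CDC6 an r of 0.82. MCM8 stood apart, with a median r of 0.22 to the other 9 genes and an r of -0.13 with MCM5 and -0.26 with MCM7. All tumors of an arm share scaling and differ in depth and GC trend, and these correlations carry whatever those share. The pairs were not computed again with the GC and length trend removed, so whether MCM8 would still stand apart was not tested.

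The same centred values were set against MKI67 and TOP2A, markers of cycling and mitotic cells. MKI67 averaged 143 ± 39.9 CPM in enzalutamide, 166 ± 33.8 CPM in ARN-509 and 180.3 ± 44.8 CPM in vehicle tumors (SD), and TOP2A averaged 350.2 ± 97.7, 432 ± 83.2 and 395 ± 93.4 CPM in the same arms. Neither passed against vehicle: MKI67 was at a log2 fold change of -0.34 with enzalutamide (adjusted p 0.0931 by edgeR) and -0.12 with ARN-509 (0.492), and TOP2A at -0.17 (0.449) and 0.13 (0.434). Without vehicle 8 and vehicle 10, MKI67 was at -0.33 (adjusted p 0.113) and -0.11 (0.551), and TOP2A at -0.18 (0.419) and 0.12 (0.519). Across tumors, 12 of 20 relations of the 10 genes with the 2 markers passed, 2 each for MCM3, MCM4, MCM6, MCM8, MCM10 and CDC6 (permutation test as above, Benjamini-Hochberg over the 20). MCM10 followed both markers most closely. It had an r of 0.66 and a Spearman rho of 0.71 with TOP2A (permutation p 2e-05 for each, adjusted p 0.0004 and 0.0003), an r of 0.63 without the 2 tumors farthest from the median, and within arms an r of 0.74 in enzalutamide, 0.76 in ARN-509 and 0.51 in vehicle tumors. With MKI67, MCM10 had an r of 0.63 and a rho of 0.63 (permutation p 4e-05 and 3e-05, adjusted p 0.0004 and 0.0003), an r of 0.56 without the 2 farthest tumors, and within arms an r of 0.87 in enzalutamide, 0.67 in ARN-509 and 0.37 in vehicle tumors.

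The other genes divided by GC content. MCM8 with MKI67 had an r of 0.56 and a rho of 0.55 (permutation p 0.00013 and 0.00027, adjusted p 0.000867 and 0.00135), and CDC6 with MKI67 an r of 0.50 and a rho of 0.46 (permutation p 0.0007 and 0.00247, adjusted p 0.0028 and 0.00702). Without the 2 tumors farthest on the marker, r was 0.52 for MCM8 and 0.41 for CDC6. Within arms MCM8 had an r of 0.71 in enzalutamide, 0.76 in ARN-509 and 0.39 in vehicle tumors, and CDC6 one of 0.75, 0.58 and 0.34, so the relations held their sign in each arm. For MCM5 with MKI67 r was 0.10 and rho 0.12 (permutation p 0.537 and 0.474, adjusted p 0.716 and 0.632), and for CDT1 with MKI67 r was 0.06 and rho 0.04 (permutation p 0.719 and 0.815, adjusted p 0.748 and 0.855). The 4 genes with no relation that passed (MCM2, MCM5, MCM7 and CDT1) have a GC content of 56.6% to 64.9%, and the 6 with relations that passed have 42% to 51.6%, while MKI67 has 48.3% and TOP2A 39.1%. After the GC and length trend of every library was taken out, 19 of 20 relations passed the permutation test. MCM2 with MKI67 then had an r of 0.60 and a rho of 0.62 (permutation p 3e-05 and 2e-05), against 0.29 and 0.30 before. CDT1 with MKI67 had an r of 0.52, against 0.06 before. MCM7 with MKI67 remained the exception with an r of 0.23 (permutation p 0.154, adjusted p 0.154).

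**Figure D3:**
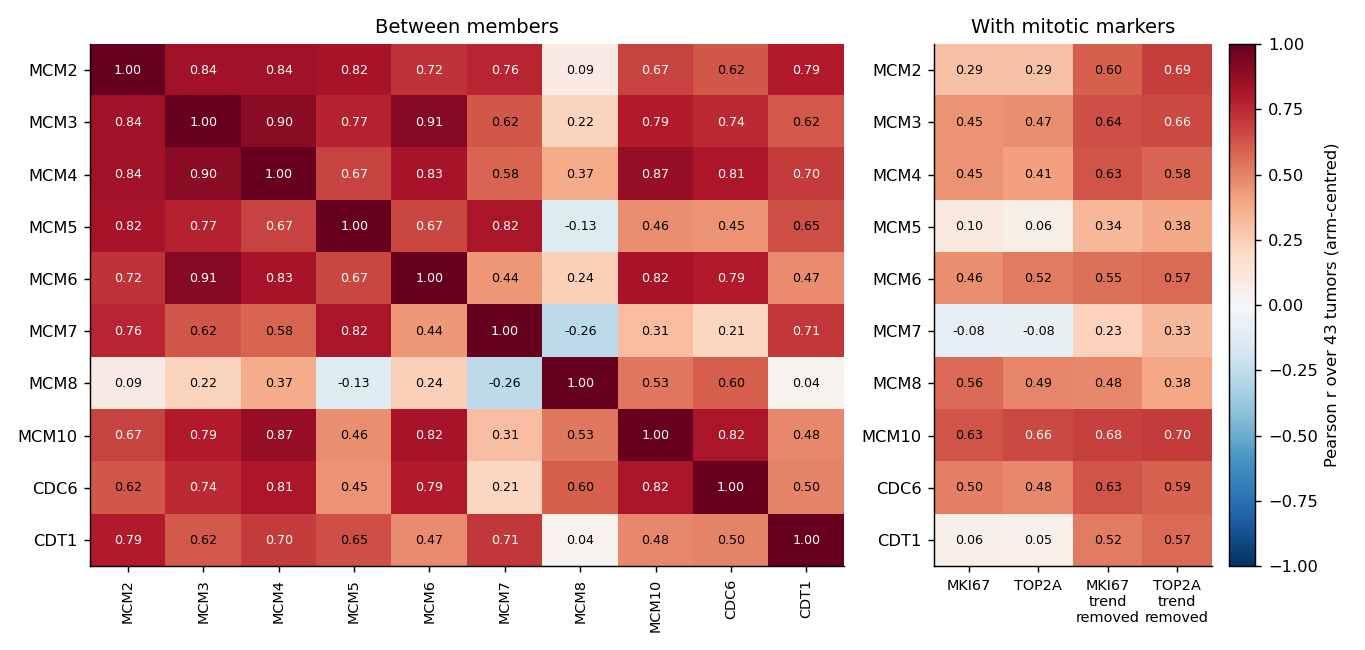
Pearson r over 43 arm-centred tumors between the 10 genes (left) and of each gene with MKI67 and TOP2A (right), before and after the GC and length trend of every library was taken out. MCM8 is pale against the ring subunits on the left, where no trend was removed. On the right, MCM2 and CDT1 reach 0.60 and 0.52 with MKI67 after the removal, against 0.29 and 0.06 before it.

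The genes whose tumor-to-tumor pattern was most like the mean of the 10 were ranked over 10406 genes by Pearson r on 43 arm-centred tumors, as a description. The nearest were TUBA1B with an r of 0.89, MYBL2 with 0.88, TUBB with 0.88, CDC45 with 0.87, IDH2 with 0.85, FEN1 with 0.85, TK1 with 0.85, CHAF1B with 0.84 and SSRP1 with 0.84. By comparison, 95% of all ranked genes had an r below 0.58, and MKI67 and TOP2A had 0.32 each. The list holds 2 tubulin genes, whose reads may be shared with close copies in their family, the transcription factor MYBL2, the mitochondrial enzyme IDH2, the helicase cofactor CDC45, the flap nuclease FEN1, thymidine kinase 1 and subunits of different histone chaperones (CHAF1B and SSRP1). These values share library scaling with the genes they were compared with.

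The other genes of the licensing machinery were described from a list of 27: the origin recognition complex, CDC45, GINS, the kinase CDC7 with its partners and further factors of origin firing. With enzalutamide 4 of 27 fell and 0 rose, where 5.67% of all tested genes fell and 5.1% rose. In the same comparison 22 of 27 had a negative log2 fold change, as did 50.9% of all tested genes, and the median of the list was -0.19. Genes are not independent samples, so counts of signs here and below are a description. WDHD1, which couples the helicase to DNA polymerase alpha, averaged 22.6 ± 5.28 CPM in enzalutamide and 30.3 ± 5.58 CPM in vehicle tumors, or -0.42 ± 0.11 as log2 fold change (SE; adjusted p 0.0091 by edgeR). TIMELESS, a fork protection factor, fell by 0.33 on the log2 scale (0.0092), the scaffold TOPBP1 by 0.27 (0.0285) and the GINS subunit GINS1 by 0.39 (0.0314). WDHD1 and TIMELESS passed in all 13 alternatives and all 43 fits without 1 library, whereas TOPBP1 lost its call in 3 and 7 of them and GINS1 in 3 and 9. The count lower was 2 without vehicle 9, enzalutamide 5 or enzalutamide 7, and 7 without vehicle 11. CDC45 at -0.30 (0.0645) and ORC1 at -0.36 (0.0679) did not pass.

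With ARN-509 11 of 27 licensing partners fell and 2 rose, beside 16.1% and 14.7% of all tested genes. Their median was -0.18 and 20 of 27 were negative, beside 50.2% of all tested genes. CDC45, which joins the MCM ring and GINS in the active helicase, averaged 35.8 ± 5.64 CPM in ARN-509 and 53.2 ± 14.9 CPM in vehicle tumors, or -0.58 ± 0.11 as log2 fold change (SE; adjusted p 6.35e-05 by edgeR). The GINS subunits fell with it: GINS2 by 0.65 on the log2 scale (0.00091), GINS4 by 0.48 (0.00115) and GINS3 by 0.44 (0.00134). ORC6 of the origin recognition complex fell by 0.58 (0.00248) and TIMELESS by 0.40 (0.000446). These 6 kept their calls in all 13 alternatives and all 43 fits without 1 library. Between the drugs, 1 of 27 was higher in enzalutamide tumors (GINS4, 0.30, adjusted p 0.0442) and 2 were lower (TOPBP1, -0.28, 0.0161, and ORC4, -0.17, 0.0253), both under the 12.2% and 14.6% over all tested genes. None of these 3 kept its call after the removal of the GC and length trend, where ORC4 changed sign to 0.080 (adjusted p 0.316) and 2 others of the 27 were called higher. The 3 calls became 4 higher and 2 lower without vehicle 8 or enzalutamide 10, 3 higher and 2 lower without enzalutamide 3 or ARN-509 13, and 1 lower without enzalutamide 9.

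Genes that build DNA behind the helicase were described from a list of 32 polymerases, clamp and clamp loader, ligase and nucleotide-supply genes. With enzalutamide 4 of 32 fell and 0 rose, beside 5.67% and 5.1% of all tested genes. Their median was -0.17 and 28 of 32 were negative, beside 50.9% of all tested genes. The primase subunit PRIM1 averaged 33.4 ± 5.19 CPM in enzalutamide and 42.1 ± 4.79 CPM in vehicle tumors, a log2 fold change of -0.33 (adjusted p 0.00444 by edgeR). The clamp loader subunit RFC3 (-0.28, 0.0342), the histone chaperone subunit CHAF1A (-0.33, 0.0368) and the polymerase alpha subunit POLA2 (-0.21, 0.0495) also fell, but each lost its call in 10 or more of the 43 fits without 1 library. With ARN-509 19 of 32 fell and 0 rose, beside 16.1% and 14.7% of all tested genes. Their median was -0.27 and 30 of 32 were negative, beside 50.2% of all tested genes. Thymidine kinase TK1 averaged 67.3 ± 14.2 CPM in ARN-509 and 117 ± 49.3 CPM in vehicle tumors, or -0.80 ± 0.14 as log2 fold change (adjusted p 3.76e-05 by edgeR), and CHAF1A, POLA2, PRIM1, POLD2 and RFC2 fell by 0.58, 0.38, 0.42, 0.35 and 0.38. Between the drugs 6 of 32 were higher and 1 lower in enzalutamide tumors, beside 12.2% and 14.6% of all tested genes, led by POLD4, a small subunit of polymerase delta, at 0.45 ± 0.09 (adjusted p 0.00311 by edgeR). After the GC and length trend was removed, 2 of the 32 were higher and 0 lower, while without vehicle 8 and vehicle 10 the counts were 12 and 1, without vehicle 8 alone 11 and 1, and without enzalutamide 6 they were 4 and 0.

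**Figure D4:**
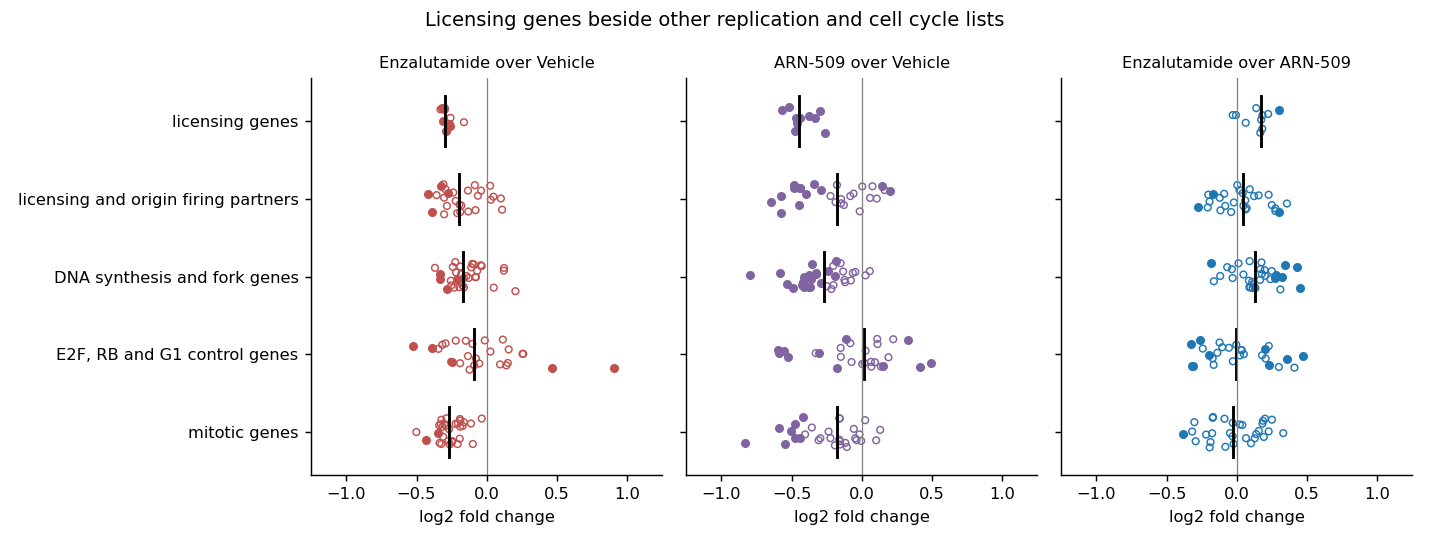
Log2 fold change of every tested gene of the 4 lists (licensing and origin firing partners, DNA synthesis and fork genes, E2F, RB and G1 control genes, and mitotic genes) in the 3 comparisons, with 1 point per gene and a bar at the median. With ARN-509 the DNA synthesis genes have a median of -0.27, and the E2F, RB and G1 genes scatter around a median of 0.02.

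The E2F, RB and G1 control genes, which act around the commitment to S phase, come next. With enzalutamide 2 of 27 tested genes rose and 3 fell, beside 5.1% and 5.67% of all tested genes, with a median of -0.09. CDKN2A, which encodes the CDK4 inhibitor p16, was at 6.23 ± 2.29 CPM in enzalutamide and 3.38 ± 1.19 CPM in vehicle tumors, or 0.90 ± 0.19 as log2 fold change (adjusted p 0.000757 by edgeR). The S phase kinase CDK2 was at 47.3 ± 8.62 CPM in enzalutamide and 68.3 ± 17.3 CPM in vehicle tumors, a log2 fold change of -0.53 ± 0.11 (0.000905). Cyclin E1 (CCNE1) rose by 0.47 on the log2 scale (0.0183), and the activators E2F3 and E2F2 fell by 0.25 (0.0386) and 0.39 (0.0463). CCNE1 lost its call when libraries were thinned to equal depth, E2F3 in 14 and E2F2 in 19 of the 43 fits without 1 library. With ARN-509 4 of 27 rose and 7 fell, beside 14.7% and 16.1% of all tested genes, with a median of 0.02: CDK2 fell by 0.56 (adjusted p 0.000162), E2F2 by 0.59 (0.000553), E2F1 by 0.59 (0.000839), the phosphatase CDC25A by 0.52 (0.00161) and CDK4 by 0.30 (0.00349), and RBL2, the RB relative p130, rose by 0.41 (0.000512). Between the drugs 4 of 27 were higher and 5 lower in enzalutamide tumors, beside 12.2% and 14.6% of all tested genes, with RBL2 at a log2 fold change of -0.32 (0.0118), and 0 of 27 passed after the GC and length trend was removed. Without ARN-509 6 the counts against vehicle were 2 and 5, and between the drugs 5 of 27 passed without enzalutamide 5, ARN-509 6 or ARN-509 14.

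Of 30 mitotic genes, 2 fell and 0 rose with enzalutamide, near the 5.67% and 5.1% over all tested genes. The log2 fold change was negative for 30 of 30, with a median of -0.27, and for 50.9% of all tested genes. The 2 that fell were the cytokinesis factor ECT2 at -0.43 ± 0.12 (SE, adjusted p 0.0108 by edgeR) and the spindle checkpoint kinase BUB1B at -0.35 ± 0.11 (0.0374). BUB1B lost its call in 12 of the 43 fits without 1 library. ECT2 lost its call when the replicate number entered the fit as a block (adjusted p 0.0543 by edgeR), where 0 of 30 were called. With ARN-509 8 of 30 fell and 0 rose, beside 16.1% and 14.7% of all tested genes. Their median was -0.18 and 27 of 30 were negative, beside 50.2% of all tested genes. The transcription factors MYBL2 and FOXM1 were at -0.83 ± 0.17 (0.00032) and -0.44 ± 0.11 (0.00177), cyclin B2 (CCNB2) at -0.47 (0.00507), CDC20 at -0.59 (0.00678) and PLK1 at -0.55 (0.0114). Cyclin B1 (CCNB1) was at -0.42 (0.0176), with an adjusted p of 0.0531 without vehicle 8, where 5 of 30 fell. Between the drugs 1 of 30, ECT2, passed and was lower in enzalutamide tumors, at -0.39 (0.0156), where 26.8% of all tested genes passed. The count was 0 after the GC and length trend was removed, 2 without enzalutamide 2 or enzalutamide 14, 3 without enzalutamide 8 and 4 without ARN-509 3.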

How the data were processed

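RNA of 44 tumors was sequenced. Per the labels' protocols the libraries were made by the TruSeq RNA v2 guide of Illumina, a kit without strand information. The authors deposited raw read counts in 1 table, genes by tumors. Reads went, per the submitters' processing notes, through TopHat2 2.1.0, HTSeq 0.6.1, Picard 1.77 and bcl2fastq 1.8.4, listed there with build hg19 and in no stated order. Which settings and gene annotation were chosen, whether strand was used and how mouse reads were handled is not given in the sources used here. All columns matched a sample (0 without one), 0 pairs of columns were identical, replicate libraries differed by a chi-square of at least 3.27 per degree of freedom, and 2790 genes had 0 counts in all libraries.

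The 43 libraries without enzalutamide 4, which the choice of columns leaves out, were fitted together in edgeR 4.0.16 (R 4.3.3): filterByExpr by arm, TMM, a robust quasi-likelihood fit with arm as the only term, and Benjamini-Hochberg adjustment over the 13520 tested genes with a threshold of 0.05. Adjusted p-values in parentheses are from this test. Levels are CPM on TMM-scaled totals. The lowest count of any of the 10 genes in a fitted library was 63, for CDT1; p-values measure the spread between tumors. Correlations used log2 CPM with a prior count of 1. GC content and length came from the longest protein-coding transcript in a GRCh38 annotation (GENCODE), matched by symbol for 95.8% of tested genes, and promoter sequences from RefSeq; no hg19 coordinates were used.

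The genes and lists were chosen with earlier results of these data known. Named genes are the 10 members and, of each list and comparison, up to 6 genes with the smallest p, plus genes nearest to the members between tumors, some of which are not reported here. Alternatives were DESeq2 1.42.0, its size factors, library totals, no filter, a stricter filter (1 CPM in 13 libraries), no robust estimation, a replicate block, limma 3.58.1 voom with quality weights, all 44 libraries, fits of the 2 arms alone, without vehicle 8 and vehicle 10, GC and length trends removed, libraries thinned to 3.38 M counts (M for mega), and each library left out.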

Additional observations from a re-analysis of the deposited data

How the results depend on the processing

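The negative sign of all 10 genes against vehicle held in every alternative and every fit without 1 library. Since those fits share libraries with the choice of the set, nothing is read from it. The count of the 10 called lower with enzalutamide was 6, and 3 with a replicate block. The count called between enzalutamide and ARN-509 was 1 (MCM5), and 0 with GC and length trends removed, 2 with only the 2 arms compared and 5 with limma. Over all tested genes, limma called 2547 for enzalutamide against vehicle, in place of 1455, and 5707 between the drugs, in place of 3623, where the removal of GC and length trends left 891 (442 higher, 449 lower). Library totals in place of TMM moved the split of higher and lower calls to 838 and 600 (from 689 and 766) for enzalutamide against vehicle, to 2713 and 1466 (from 1988 and 2178) for ARN-509 against vehicle, and to 1202 and 2263 (from 1647 and 1976) between the drugs. Relations with MKI67 and TOP2A that passed numbered 12, and 19 with trends removed, where MCM7 with TOP2A had an r of 0.33 in place of -0.08. ORC4 between the drugs was at 0.080 with trends removed, in place of -0.17. E2F octamers stood in 7 of 8 members, and in 4 before the start, since the search window was shorter. For the others the cause was not tested.

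Without 1 library at a time, the counts for enzalutamide against vehicle, ARN-509 against vehicle and enzalutamide against ARN-509 ran from 1145 to 1794, 3261 to 5045 and 2680 to 4269 genes, and from 3 to 7, 9 to 10 and 1 to 2 of the 10 genes, the 2 being without ARN-509 13. Of named genes of the lists that passed, 24 of 24 with ARN-509 kept their calls in all 13 alternatives. With enzalutamide 5 of 15 did, and between the drugs 1 of 16. Named genes are those with the smallest p of each list. With enzalutamide they took in every called gene of the lists, but with ARN-509 only the strongest of a larger number. These shares therefore cover unlike sets and are not compared. Between the drugs the removal of trends ended 14 calls of named genes with the sign kept. ORC4, which changed sign, did not pass either (adjusted p 0.316 by edgeR). The lists' counts for enzalutamide against vehicle moved over 1.5 times in 4 (licensing partners, 2 to 7 lower), 12 (DNA synthesis, 1 to 7), 13 (E2F, RB and G1, 1 to 4) and 20 (mitotic, 1 to 5) of the 43 fits. These counts are small, so a change of few genes exceeds that ratio, and the numbers of fits are not compared with those of larger counts.

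The labels number the libraries within arms. Same-numbered libraries of different arms had a median r of 0.009 in their deviations from the arm means (13 of 41 pairs over 0.1) and other pairs -0.005, so the numbers were not read as pairs. With the replicate block, 1197, 4084 and 3290 genes and 3, 10 and 1 of the 10 genes passed in the 3 comparisons. The lists' counts lower for enzalutamide against vehicle were then 2 (licensing partners), 2 (DNA synthesis) and 0 (mitotic, ECT2 losing its call). Without vehicle 8 and vehicle 10 the lists' counts against vehicle stayed within 1.5 times. The lowest count of any of the 10 genes in a fitted library was 63, for CDT1.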
